A study of Drosophila melanogaster with 8 samples.

Results

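The genes described here are those of the glycerophosphate shuttle and the main arginine kinase of Drosophila melanogaster: Gpdh1, Gpdh2, Gpdh3, Gpo1, Gpo2, Gpo3 and Argk1. They were chosen by name, and all 7 were found among the 17813 symbols shared by the muscle table and the whole-fly table. RNA of each gene was measured by mRNA sequencing in 8 libraries forming 4 groups of 2. The groups were adult muscle of flies labelled mutant, adult muscle of wildtype flies, adult whole flies labelled mutant, and adult whole wildtype flies. The mutant is a knockout of anw, the gene called Angel Wing, which the series counts among regulators of alternative splicing. All flies were raised at 25 °C on the same food. Age, sex, the kind of muscle taken, the knockout allele and the number of flies per library are not stated in the labels or the design text.

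The shuttle carries the electrons of cytosolic NADH into mitochondria and so lets glycolysis run on. A cytosolic glycerol 3-phosphate dehydrogenase, the product of the Gpdh genes, uses NADH to turn dihydroxyacetone phosphate into glycerol 3-phosphate. A glycerophosphate oxidase of the inner mitochondrial membrane, the product of the Gpo genes, turns it back and passes the electrons to ubiquinone. Insect flight muscle relies on this cycle and makes little lactate. Arginine kinase moves phosphate between ATP and arginine, and phosphoarginine buffers ATP in insect muscle as phosphocreatine does in vertebrate muscle. Glycerol 3-phosphate is also the backbone from which triglycerides and phospholipids are built.

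Reads assigned to genes lay between 18580751 and 22210197 per library. All 13 flight muscle markers, among them Act88F, Mhc and TpnC4, were detected in each muscle library, and their summed FPKM was 14846 and 14225 in mutant muscle and 13313 and 17377 in wildtype muscle. Markers of other tissues were abundant in the muscle libraries too. The summed FPKM of 8 fat body markers was 8338 and 19450 in mutant muscle, against 26517 and 14385 in wildtype muscle. That of 9 gut markers was 10826 and 8538 in mutant muscle, against 11805 and 15198 in wildtype muscle. Most of the fat body sum came from the yolk protein genes Yp1, Yp2 and Yp3, while the sex of the flies is not stated. Yp3 alone had 3785 and 9424 FPKM in mutant muscle, against 12718 and 6571 FPKM in wildtype muscle. No marker of either list was at 0 in muscle, and none was called, as was true of every gene tested there. Mutant minus wildtype differences were negative for all 8 fat body markers and for 8 of 9 gut markers. On the log2 scale their medians were -0.62 and -0.51, against 0.02 over all genes tested. The part of these lists in the muscle values of the members was not tested. Nothing in the labels says that repeats were separate flies, and the p-values therefore reflect only the variation among these libraries, part or all of which may be technical. Neither the tables nor the reference used here pair the symbol anw with a gene, so the genotype labels were not checked against its RNA. The tables give the total RNA of each gene and not its splice forms.

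Gpdh1, Gpo1 and Argk1 were abundant in both tissues, and the other 4 genes were weakly expressed. Levels are given as FPKM, read numbers divided by gene length in kilobases and by library size, so they can be set beside each other between genes of one library. Argk1 stood highest in every library, and by FPKM it ranked 72nd and 71st among all genes of the mutant muscle libraries and 104th and 99th in wildtype muscle. In whole flies its rank was 170 and 193 in mutants, against 209 and 207 in wildtypes. In mutant muscle Gpdh1 averaged 614 ± 78.2 FPKM and Gpo1 579 ± 16.7 FPKM, and in wildtype muscle Gpdh1 averaged 599 ± 5.86 FPKM and Gpo1 590 ± 36.0 FPKM (SD, n = 2 each). The muscle and whole-fly tables were scaled separately, so a ratio of levels between them is a description only. Mean FPKM in wildtype muscle was 3.51 times that in wildtype whole flies for Gpdh1, 3.99 times for Gpo1 and 2.62 times for Argk1. The same ratios in mutants were 1.36 for Gpdh1, 1.66 for Gpo1 and 1.99 for Argk1.

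**Figure D1:**
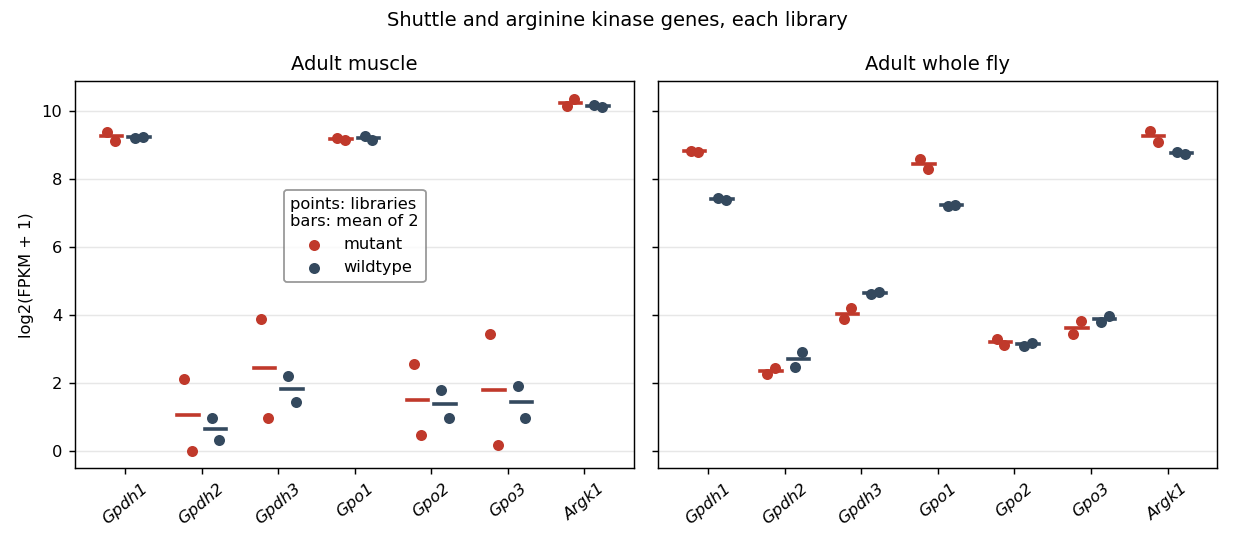
Expression of the 7 genes in each of the 8 libraries, as log2(FPKM + 1), with muscle on the left and whole flies on the right. Points are libraries and bars the mean of 2. In whole flies the mutant points of Gpdh1, Gpo1 and Argk1 lie above both wildtype points, and in muscle the genotypes of all 7 genes overlap.

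Gpdh1, the cytosolic dehydrogenase, was higher in mutant whole flies and did not differ detectably in muscle. In whole flies it had 454 and 447 FPKM in mutants, against 174 and 167 FPKM in wildtypes. The groups lay far apart, and the libraries of a group lay close together. The mean was 2.65 times that of wildtypes, and the difference on the log2(FPKM + 1) scale was 1.40 ± 0.097 (SE, n = 2 per group; 95% interval 1.17 to 1.63; limma with Benjamini-Hochberg adjustment over all 11419 genes tested, adjusted p = 0.000156). Ordered by p, Gpdh1 stood 111th of the 11419. In muscle it had 669 and 559 FPKM in mutants, against 595 and 603 FPKM in wildtypes. The mutant libraries enclosed the wildtype ones. The difference was 0.03 ± 0.14 (SE), with a 95% interval of -0.38 to 0.44 that lies below the whole-fly interval (limma, adjusted p = 0.95). Gpdh1 lies at chr2L:5943643-5948968 on the plus strand of release 6 of the fly genome. Its 6 annotated transcripts use 3 different stop codons, and the FPKM sums over them. A noncoding gene on the opposite strand, lncRNA:CR44986, shares 697 exonic bases with Gpdh1 and is listed at 0 in all 8 libraries. Whether the counting used strand is not given in the sources used here.

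Gpo1, the mitochondrial oxidase that completes the cycle, showed the same arrangement. In whole flies it had 383 and 314 FPKM in mutants, against 146 and 150 FPKM in wildtypes. Both mutant libraries were above both wildtype libraries, although the mutants were further from each other than for Gpdh1. The mean was 2.35 times that of wildtypes, with a difference of 1.22 ± 0.12 (SE, n = 2 per group; 95% interval 0.94 to 1.51; limma, adjusted p = 0.000688). In muscle Gpo1 had 591 and 567 FPKM in mutants, against 615 and 564 FPKM in wildtypes. These groups overlapped, and the difference was -0.03 ± 0.12 (SE; 95% interval -0.36 to 0.31; limma, adjusted p = 0.949). Gpo1 lies at chr2R:15857752-15862755 on the minus strand and has 4 annotated transcripts. The calls of Gpdh1 and Gpo1 in whole flies held in each of the 13 alternatives run for each gene.

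Of the 7 genes, 3 were called higher and 1 was called lower in mutant whole flies, where 20.8% of all genes tested were called. The share was 9.94% for genes called higher and 10.8% for genes called lower. In muscle none of the 6 members that passed the filter was called, as was true of all 10079 genes tested with limma (0%), although 14% of them had an unadjusted p under 0.05. The genotypes did not overlap in whole flies for 5 of the 7 members, and 66% of all genes tested there did not overlap either. In muscle the genotypes overlapped for all 7 members, while 48.9% of genes tested did not overlap.

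The genotype effect itself was compared between the tissues in a fit over all 8 libraries. For Gpdh1 the effect in muscle minus that in whole flies was -1.37 ± 0.15 (SE; limma interaction term, adjusted p = 0.0127 over 9465 genes). For Gpo1 it was -1.25 ± 0.17 (SE; limma, adjusted p = 0.0184). These were 2 of the 401 genes, 4.24% of those tested, whose genotype effect was called lower in muscle than in whole flies, out of 552, or 5.83%, called in all. With FPKM rescaled to nuclear genes, 247 of 413 calls were lower in muscle. For Argk1 the difference of the effects was -0.39 ± 0.20 (SE; limma, adjusted p = 0.257). Neither call held in every alternative. With single libraries left out, the difference itself stayed between -1.50 and -1.24 for Gpdh1 and between -1.39 and -1.11 for Gpo1. The adjusted p of Gpdh1 was between 0.0507 and 0.0935 without any one of the 4 whole-fly libraries, and 0.0736 after quantile scaling. That of Gpo1 was 0.0691 without whole-fly mutant 1, 0.11 without whole-fly wildtype 1, 0.108 without whole-fly wildtype 2, and 0.0585 without muscle wildtype 1.

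Argk1, the phosphagen kinase, was also higher in mutant whole flies, by a smaller factor. There it had 680 and 548 FPKM in mutants, against 439 and 427 FPKM in wildtypes. Both mutants were above both wildtypes, and mutant 1 was well above mutant 2. The mean was 1.42 times that of wildtypes, with a difference of 0.50 ± 0.13 (SE, n = 2 per group; 95% interval 0.19 to 0.80; limma, adjusted p = 0.037). The call was lost without mutant 1, where the difference was 0.34 (adjusted p = 0.0748), without wildtype 1 (adjusted p = 0.136) and without wildtype 2 (adjusted p = 0.158). Quantile scaling within the tissue gave 0.28 (adjusted p = 0.117). In muscle Argk1 had 1124 and 1317 FPKM in mutants, against 1150 and 1115 FPKM in wildtypes. Mutant 1 lay among the wildtypes and mutant 2 above them. The muscle difference was 0.10 ± 0.14 (SE; 95% interval -0.30 to 0.51; limma, adjusted p = 0.802). Argk1 lies at chr3L:9048781-9066027 on the minus strand and has 7 annotated transcripts.

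Formed within each library, the ratio of Gpo1 to Gpdh1 varied less than that of Argk1 to Gpdh1. Gpo1 over Gpdh1 in whole flies was 0.842 and 0.703 in mutants, against 0.842 and 0.897 in wildtypes. These values touched, and the difference of the log2 ratios was -0.18 (exact permutation test, two-sided, p = 0.667). Argk1 over Gpdh1 in whole flies was 1.50 and 1.23 in mutants, against 2.53 and 2.56 in wildtypes. Both mutants were well below both wildtypes, and the log2 difference was -0.91 (exact permutation test, two-sided, p = 0.333). That is the smallest p that 2 against 2 libraries allow, so no ratio could reach 0.05. In muscle the same ratio was 1.68 and 2.36 in mutants, against 1.93 and 1.85 in wildtypes, with the mutants on either side of the wildtypes.

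**Figure D2:**
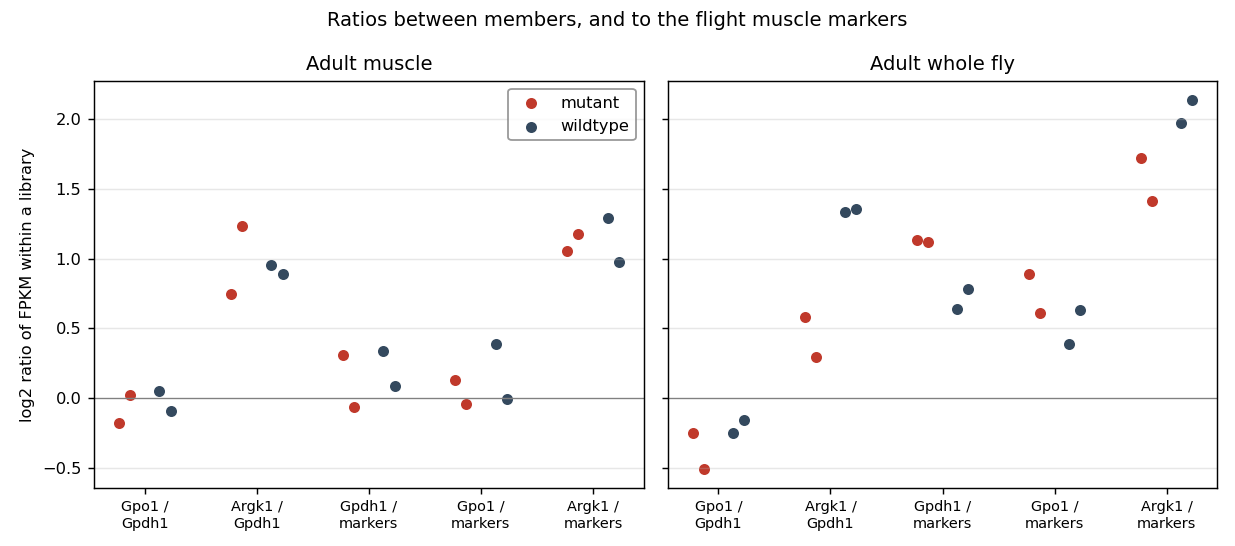
Log2 ratio of FPKM within each library, for pairs of members and for Gpdh1, Gpo1 and Argk1 over the geometric mean of 13 flight muscle markers. Points are libraries, and 0 marks equal FPKM. In whole flies the mutant points of Argk1 over Gpdh1 lie below both wildtype points, and those of Gpdh1 over the markers lie above.

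RNA of most muscle proteins listed was higher in the same mutant whole flies. The list used bears the name of flight muscle, but whether its genes are particular to that muscle was not tested. The summed FPKM of the 13 flight muscle markers was 7493 and 6842 in mutants, against 3331 and 2846 in wildtypes. Of these markers 12 had a positive difference and 10 were called higher, where 9.94% of all genes tested were called higher. The median log2 difference was 1.16, against 0.02 over all genes tested. Mf (0.13), sls (0.10) and bt (-0.19) were the 3 not called. Among the called ones, Mlc2, a myosin light chain, differed by 1.53 and Prm, the paramyosin of thick filaments, by 1.27 (limma, adjusted p = 0.000717 and 0.00027). The difference of Gpdh1 was larger than that of 9 of the 13 markers, that of Gpo1 larger than 8, and that of Argk1 larger than 3. In bulk RNA, more or fewer cells of a type cannot be told apart from more or less RNA per cell.

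The ratio of each abundant member to the geometric mean of these markers was formed after the whole-fly values had been seen. For Gpdh1 in whole flies it was 2.20 and 2.17 in mutants, against 1.55 and 1.72 in wildtypes, higher in both mutants. For Gpo1 it was 1.85 and 1.53 in mutants, against 1.31 and 1.55 in wildtypes, and the genotypes overlapped. For Argk1 it was 3.29 and 2.66 in mutants, against 3.93 and 4.41 in wildtypes, lower in both mutants. The log2 differences were 0.42 for Gpdh1 (exact permutation test, two-sided, p = 0.333), 0.24 for Gpo1 (exact, p = 0.667) and -0.49 for Argk1 (exact, p = 0.333). In muscle they were -0.09, -0.15 and -0.02, and the genotypes overlapped for each. The geometric mean includes Mf, sls and bt, which were not called in whole flies. The median marker difference in whole flies was 1.16, against 1.40 for Gpdh1, 1.22 for Gpo1 and 0.50 for Argk1. Other marker lists also moved in whole flies. Of 8 fat body markers 5 were called higher in mutants, and of 9 gut markers 7 were called lower and 1 higher. Over all genes tested there, 9.94% were called higher and 10.8% lower. None of 8 neuron markers was called, but all 8 had negative differences, with a median of -0.25 against 0.02 over all genes tested. The summed FPKM of the fat body markers in whole flies was 10062 and 9212 in mutants, against 7246 and 6899 in wildtypes. That of the gut markers was 10778 and 10861 in mutants, against 19392 and 18157 in wildtypes, and no marker of either list was at 0 there. Yp1, Yp2 and Yp3 gave most of the fat body sum in whole flies too. The part of these lists in the results for Gpdh1, Gpo1 and Argk1 was not tested.

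Gpdh2, Gpdh3, Gpo2 and Gpo3 are further copies of the dehydrogenase and the oxidase, known chiefly from males. They made up little of the RNA of either family. Gpdh1 accounted for 97.5% and 99.8% of the summed Gpdh FPKM in mutant muscle, against 99.2% and 99.7% in wildtype muscle. In whole flies its share was 96.3% and 95.3% in mutants, against 86.2% and 84.3% in wildtypes. Both whole-fly mutants were above both wildtypes. Gpo1 accounted for 95.3% and 93.9% of the summed Gpo FPKM in mutant whole flies, against 87.8% and 86.8% in wildtype whole flies.

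Gpdh3 was the only weak member called, and it moved opposite to Gpdh1. In whole flies it had 13.7 and 17.4 FPKM in mutants, against 23.4 and 24.5 FPKM in wildtypes. Both mutants were below both wildtypes, with a difference of -0.60 ± 0.14 (SE, n = 2 per group; 95% interval -0.92 to -0.28; limma, adjusted p = 0.0203). Without wildtype 2 the difference was -0.57 and the adjusted p 0.0684. With no filter on low values it was 0.0513, and with a spread shared with the muscle libraries, over 9465 genes, 0.758. Gpdh3 lies at chr3R:22382035-22386548 on the plus strand. It shares 113 exonic bases with CG43342 and 60 with CAH8, which had at most 3.67 and 1.62 FPKM in any library.

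Of the other weak members, Gpdh2 (chr2R:23128604-23130189, minus strand) had 3.74 and 4.47 FPKM in mutant whole flies, against 4.52 and 6.55 FPKM in wildtype whole flies. These groups were close to each other without overlapping, and the difference was -0.34 ± 0.18 (SE; limma, adjusted p = 0.223). Gpo3 (chr2L:13708215-13710583, plus strand), which lies within DIP-kappa on the opposite strand without sharing exonic bases, had 9.92 and 13.0 FPKM in mutants, against 12.9 and 14.7 FPKM in wildtypes. The groups overlapped, with a difference of -0.26 ± 0.15 (SE; limma, adjusted p = 0.253). Gpo2 (chr2R:7535919-7538297, plus strand), a gene of a single exon, had 8.83 and 7.59 FPKM in mutants, against 7.41 and 8.11 FPKM in wildtypes. Its groups overlapped fully, with a difference of 0.07 ± 0.13 (SE; limma, adjusted p = 0.726). Gpo2 shares 66 exonic bases with CG1598, which had 23.0 to 50.7 FPKM over the 8 libraries, and 18 with Cyt-b5, which had 164 to 428 FPKM. Both are more abundant than Gpo2, and its values are uncertain as far as reads of the shared bases were counted for it. How reads that match several of these copies were assigned is not given in the sources used here.

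In muscle the 4 weak members varied more between libraries of a genotype than between genotypes. Gpdh3 had 13.8 and 0.946 FPKM in mutant muscle, against 3.56 and 1.69 FPKM in wildtype muscle. Gpo3 had 9.75 and 0.118 FPKM in mutants, against 2.75 and 0.966 FPKM in wildtypes. Gpo2 had 4.92 and 0.368 FPKM in mutants, against 2.48 and 0.961 FPKM in wildtypes. For each gene mutant 1 was the highest library and mutant 2 the lowest, with both wildtypes between them. Gpdh2 had the same order, at 3.31 and 0 FPKM in mutants, against 0.967 and 0.241 FPKM in wildtypes. The 0 stands for no read of 20655630, which allows up to 3 reads by counting error alone, and Gpdh2 did not pass the filter of 1 FPKM in 2 libraries. The differences of the 3 tested genes were 0.61 ± 1.10 for Gpdh3, 0.35 ± 1.23 for Gpo3 and 0.12 ± 0.84 for Gpo2 (SE; limma, adjusted p = 0.863, 0.934 and 0.967). Each 95% interval spans a fold of more than 5 in either direction except the lower bound of Gpo2, at 0.211. These genes gave 94 reads together in mutant 2, against 1956 in mutant 1, 609 in wildtype 1 and 246 in wildtype 2.

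Testis RNA followed the same order among the muscle libraries. The summed FPKM of 13 testis markers was 430 and 1.93 in mutant muscle, against 149 and 44.1 in wildtype muscle. Of the 13 markers, 1 and 7 were at 0 in the mutant libraries, and 2 and 1 in the wildtype libraries. In whole flies the sum was 615 and 573 in mutants, against 779 and 881 in wildtypes. All 9 markers tested there had negative differences, with a median of -0.28, against 0.02 over all genes tested. Of these markers 3 were called lower, as were 10.8% of all genes tested. The part of testis RNA in the values of the weak members was not tested. The comparison of genotype effects between tissues inherits this spread. For Gpdh3 the effect in muscle minus that in whole flies was 1.22 (limma, adjusted p = 0.58), with 2.68 without muscle mutant 2 (adjusted p = 0.0137) and -0.25 without muscle mutant 1 (adjusted p = 0.671). For Gpo3 it was 0.61 (limma, adjusted p = 0.812), and 2.25 without muscle mutant 2 (adjusted p = 0.0296). For Gpo2 it was 0.05 (limma, adjusted p = 0.978).

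**Figure D3:**
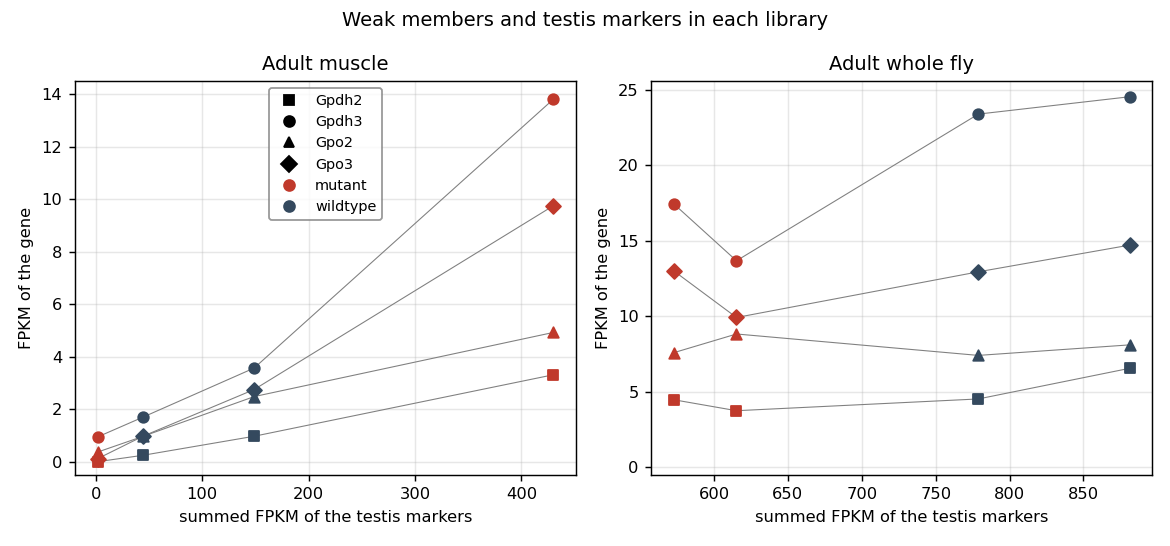
FPKM of Gpdh2, Gpdh3, Gpo2 and Gpo3 in each library against the summed FPKM of 13 testis markers in that library, with lines joining the libraries of a tissue in order of the sum. In muscle each gene is lowest where the sum is 1.93 and highest where it is 430. In whole flies Gpdh2, Gpdh3 and Gpo3 are lowest where the sum is 615 and highest where it is 881. Gpo2 is highest there where the sum is 615 and lowest where it is 779.

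The other arginine kinase genes did not pass the test in either tissue. Argk2 lies at chr3L:9047439-9048724 on the plus strand, and 56 bases separate its annotated end from that of Argk1, which is read toward it. It had 7.38 and 9.03 FPKM in mutant whole flies, against 8.55 and 11.1 FPKM in wildtype whole flies, and these overlapped (difference -0.23; limma, adjusted p = 0.338). CG4546, for which RefSeq gives the synonym AK-3, had 61.0 and 55.9 FPKM in mutant whole flies, against 52.8 and 64.8 FPKM in wildtype whole flies (difference -0.003; limma, adjusted p = 0.989). In muscle CG4546 had 34.4 and 1.76 FPKM in mutants, against 8.92 and 3.29 FPKM in wildtypes, the order seen for the weak shuttle genes. Argk2 had it too, at 8.41 and 1.70 FPKM in mutant muscle, against 3.42 and 2.57 FPKM in wildtype muscle.

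Together the 7 members took 0.472% and 0.431% of the reads in genes of mutant whole flies, against 0.272% and 0.280% in wildtype whole flies. Both mutants were well above both wildtypes. In muscle they took 0.858% and 0.711% in mutants, against 0.774% and 0.768% in wildtypes, with the wildtypes between the mutants. Gpdh1, Gpo1 and Argk1 supplied 157458 of the 159414 member reads in muscle mutant 1, the muscle library with the most reads from the weak genes.

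Glycolysis, whose NADH the shuttle reoxidises, was described with 16 genes. In whole flies 7 were called higher in mutants and 2 lower, where 9.94% of all genes tested were called higher and 10.8% lower. A positive difference was found for 13, and the median was 0.32, against 0.02 over all genes tested. The called enzymes included Pglym78, a phosphoglycerate mutase, with 468 and 432 FPKM in mutants, against 259 and 255 FPKM in wildtypes (difference 0.81; limma, adjusted p = 0.00194). Pfk, the phosphofructokinase that commits sugar to glycolysis, had 118 and 110 FPKM in mutants, against 63.5 and 66.7 FPKM in wildtypes (0.80; adjusted p = 0.00162). Both genes separated the genotypes clearly, by less than Gpdh1 did. Gapdh1, a gene of the dehydrogenase that makes the NADH, had 2681 and 2245 FPKM in mutants, against 1483 and 1420 FPKM in wildtypes (0.76; limma, adjusted p = 0.00916). The other genes called higher were Tpi (0.69), Gapdh2 (0.63), Glyp, the glycogen phosphorylase (0.49), and Pgk (0.44).

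The 2 genes called lower were Ldh and Treh. Ldh, the lactate dehydrogenase that offers another route for NADH, had 17.2 and 14.8 FPKM in mutant whole flies, against 24.1 and 22.2 FPKM in wildtype whole flies (difference -0.51; limma, adjusted p = 0.0233). Treh, which splits the blood sugar trehalose, differed by -0.50 (limma, adjusted p = 0.0128). In muscle none of the 16 was called, and their median was -0.14, against 0.02 over all genes tested. The most abundant there were Gapdh1, at 3799 and 3898 FPKM in mutants, against 4481 and 3879 FPKM in wildtypes (-0.12; limma, adjusted p = 0.795), and Ald1, the aldolase. Ald1 had 1436 and 1361 FPKM in mutant muscle, against 1847 and 2080 FPKM in wildtype muscle (-0.49; limma, adjusted p = 0.32). Pgi and Pgk had the smallest p of the list in muscle, with differences of -0.50 and -0.49 (limma, adjusted p = 0.297 and 0.31).

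The malate-aspartate route, mitochondrial carriers and channels, and cytochrome c were described with 12 genes. In whole flies 5 were called higher in mutants and 1 lower, with a median of 0.22. Of all genes tested in whole flies, 9.94% were called higher and 10.8% lower, with a median of 0.02. Mpcp1, a mitochondrial phosphate carrier, had 1152 and 985 FPKM in mutants, against 374 and 355 FPKM in wildtypes (difference 1.55; limma, adjusted p = 0.000244). Cyt-c-p, the cytochrome c of the respiratory chain, had 980 and 1040 FPKM in mutants, against 524 and 497 FPKM in wildtypes (0.98; limma, adjusted p = 0.00109). Both had mutants far above wildtypes, and Mpcp1 was the single gene of the glycolysis and exchange lists with a difference above that of Gpdh1. Got2, the mitochondrial aspartate aminotransferase, differed by 0.74, sesB, an ADP/ATP carrier, by 0.73, and Mdh2, the mitochondrial malate dehydrogenase, by 0.53 (limma, adjusted p = 0.00652, 0.0097 and 0.0138). Ant2, another ADP/ATP carrier, was called lower, with a difference of -0.44 (limma, adjusted p = 0.034).

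Muscle had no called gene in that list, a median of -0.22 against 0.02 over all genes tested, and 9 of 12 negative differences. The most abundant, sesB, had 3912 and 3158 FPKM in mutant muscle, against 3771 and 4165 FPKM in wildtype muscle (-0.17; limma, adjusted p = 0.719). Next was Cyt-c-p, with 2177 and 2086 FPKM in mutants, against 2492 and 2644 FPKM in wildtypes (-0.27; limma, adjusted p = 0.456). The smallest p values belonged to porin, the outer membrane channel, and Mpcp2, another phosphate carrier, with differences of -0.65 and -0.63 (limma, adjusted p = 0.274 and 0.282).

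**Figure D4:**
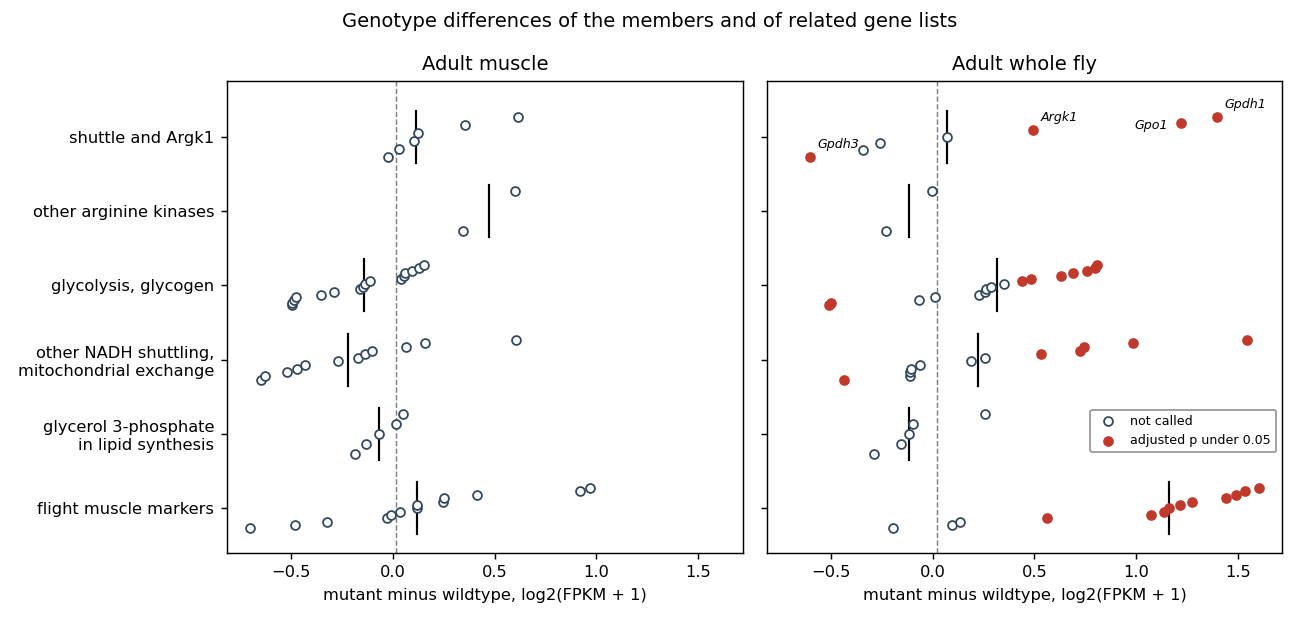
Mutant minus wildtype differences on the log2(FPKM + 1) scale for the members and for related lists, in muscle and in whole flies. Each point is a gene that passed the filter, filled points had an adjusted p under 0.05, black bars are list medians and the dashed line is the median over all genes tested. In muscle no point is filled, and in whole flies 10 of 13 flight muscle markers are.

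The 5 genes that make or use glycerol 3-phosphate, or use dihydroxyacetone phosphate, in lipid synthesis did not pass the test in either tissue. Their median was -0.11 in whole flies and -0.07 in muscle. Gk1, a glycerol kinase, had 72.9 and 65.7 FPKM in mutant whole flies, against 56.6 and 58.8 FPKM in wildtype whole flies (difference 0.26; limma, adjusted p = 0.114). Gpat4, a glycerol 3-phosphate acyltransferase, had 56.4 and 50.7 FPKM in mutants, against 57.4 and 57.1 FPKM in wildtypes (-0.10; limma, adjusted p = 0.525). Gnpat, the dihydroxyacetone phosphate acyltransferase, differed by -0.29 (limma, adjusted p = 0.147). In muscle Gk1, Gpat4 and mino, another glycerol 3-phosphate acyltransferase, differed by -0.07, -0.13 and -0.19 (limma, adjusted p = 0.858, 0.596 and 0.503).

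The genes most like the abundant members were sought among 3606 genes with a mean of at least 10 FPKM in both tables. Likeness was the root mean square difference of log2(FPKM + 1) over the 8 libraries after centring each gene, and these points share libraries, depth and the scaling of each table. For Gpdh1 the nearest were CG13315 (0.124), Tm1, a tropomyosin (0.150), and Gpo1 (0.165). Tm1 had 212 and 164 FPKM in mutant whole flies, against 77.8 and 74.9 FPKM in wildtype whole flies. For Gpo1 the nearest were UQCR-11, a subunit of respiratory complex III (0.137), and ATPsynF and ATPsynO, subunits of ATP synthase (0.156 and 0.163), with Gpdh1 next after them. UQCR-11 had 138 and 112 FPKM in mutant whole flies, against 59.1 and 57.7 FPKM in wildtype whole flies. For Argk1 the nearest were ATPsynD, another ATP synthase subunit (0.0972), Naa80, an actin N-terminal acetyltransferase (0.106), and QIL1, a subunit of the complex that shapes mitochondrial cristae (0.110). ATPsynD had 794 and 627 FPKM in mutant whole flies, against 483 and 478 FPKM in wildtype whole flies. From Argk1, Gpo1 stood 162nd and Gpdh1 269th, at distances of 0.286 and 0.352.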

How the data were processed

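The authors deposited 2 tables of FPKM per gene, one holding the muscle libraries and one the whole-fly libraries. Columns of the whole-fly table carry genotype and repeat but no tissue, and were taken as whole flies, since all 4 muscle samples stand in the other table. Per the labels' protocols, mRNA libraries were made from 1.3 µg of total RNA. The aligner and the counter were not given in the sources used here, nor was the use of strand. A mouse build, mm10, is named in the submitters' processing notes, whereas the coordinates in the deposited tables match release 6 of the fly genome (Ensembl annotation release 115) for each gene named with a position.

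FPKM times gene length fell on whole multiples of 1 step per library, within 0.1 reads, for 99.9% to 100% of values, which gave the reads and depths. The authors' totals were 0.884 to 1.089 times those sums.

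The test was limma 3.58.1 in R 4.3.3 on log2(FPKM + 1) with a mean-variance trend, for genes that reached 1 FPKM in 2 or more of a tissue's 4 libraries, each tissue fitted alone, with Benjamini-Hochberg adjustment at 0.05. This scale understates changes of weak genes. The difference between tissues was an interaction term over all 8 libraries, in 9465 genes. The fits were also run on simulated counts given the same relative spread in every gene. Such counts lack the differences seen between muscle libraries of a genotype and cannot vouch for the fits there. Alternatives were another pseudocount, other filters and scalings, removal of a length trend, a shared spread, a replicate block and leaving out each library, where the lone library of a group is assumed to vary like the others.

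The members and lists were chosen with earlier results of these data known. The genes named are the members, Argk2, CG4546, of each pathway list the 2 most abundant and the 2 with the smallest p in a tissue plus those that passed, and the 3 nearest to each abundant member. The named flight muscle markers were chosen after their values were seen. The repeats of a number are not tied to a batch by the labels and were not treated as pairs.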

Additional observations from a re-analysis of the deposited data

Results flagged for a closer look

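The effect of the genotype on Gpdh1 differed between the tissues in a test of the difference itself, at -1.37 on the log2(FPKM + 1) scale for muscle minus whole flies. The muscle effect was 0.03 and the whole-fly effect 1.40. The effect on Gpo1 also differed between the tissues in such a test, at -1.25, from a muscle effect of -0.03 and a whole-fly effect of 1.22. The call was lost in 6 of 15 alternatives for Gpdh1 and in 5 of 15 for Gpo1, most of them leaving out a single library.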

How the results depend on the processing

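With 2 libraries a group, the muscle intervals of Gpdh1, Gpo1 and Argk1 reach 0.44, 0.31 and 0.51 on the log2 scale, and the weak members rest on as few as 0 to 81 reads in a muscle library for Gpdh2. The whole-fly calls of Gpdh1 and Gpo1 kept their direction and side of 0.05 in all 13 alternatives, between 1.28 and 1.43 and between 1.08 and 1.36. For Argk1 in whole flies the difference was 0.50 with no filter (adjusted p = 0.0805), 0.28 with quantile scaling and 0.50 with a shared spread (0.107), and 0.34 to 0.65 when single libraries were left out.

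The muscle count of 0 called genes became 2 with a minimum of 5 FPKM, quantile scaling, the length trend removed or protein-coding genes only, 267 with a spread shared over all 8 libraries, which also limits the test to 9465 genes, and 0 to 12 without single libraries. The whole-fly count of 2372 became 546 with the shared spread in those 9465 genes and 1409 to 3213 without single libraries. The interaction count of 552 became 11 to 1690 without single libraries.

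Signs turned, without any call, for muscle Gpdh1 (-0.0093 with the length trend removed, -0.10 to 0.16 without single libraries) and Gpo1 (0.20 with quantile scaling, 0.032 with nuclear reads, -0.089 to 0.036 without single libraries). They turned for Gpo2 in muscle (-0.11 with a pseudocount of 0.1, -0.29 to 1.18 without single libraries), for Gpo3 in muscle (-0.25 and -0.11 to 1.99 likewise), for Gpdh3 in muscle (-0.85 to 2.08) and Argk1 in muscle (-0.010 to 0.22). They turned for Gpo2 in whole flies (-0.026 to 0.17), and in the interaction for Gpo2 (-0.19 with a pseudocount of 0.1, -0.36 to 1.11), Gpdh3 (-0.25 to 2.68) and Argk1 (0.056 with quantile scaling). Across all genes, the median interaction was -0.034, and 0.077 with nuclear reads, where Gpdh1 stood at -1.25. The cause of these changes was not tested. A count-based test of the reads derived from FPKM and gene length, which had been planned, is not reported here.

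With a replicate block the interaction count was 4, and Gpdh1 and Gpo1 kept -1.37 and -1.25 with adjusted p = 0.0899 and 0.1. The block gave 2807 calls in whole flies and 0 in muscle, and changed no other member's call. Same-numbered libraries had correlated deviations of 0.389 in muscle and -0.149 in whole flies. Crossed numbers, tried after seeing the data, gave 3029 calls in whole flies and 0 in muscle.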
